A study of Mus musculus with 20 samples.

Results

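Epididymal epithelial identity was followed here through 9 genes, Pax2, Pax8, Lhx1, Esr1, Aqp1, Aqp9, Crisp1, Lcn5 and Rnase10, which were taken by symbol from the 21509 genes of each abundance table. All 9 symbols were found once in both tables. They were listed as epididymal and principal cell markers, with earlier results of these data known. The libraries came from DC2, an immortalized line of principal cells from the distal caput of the mouse epididymis, cultured before the experiments in medium with dihydrotestosterone and serum. In the first table, 6 libraries came from cells under flow (3 h of shear at 1 dyne/cm²) and 6 from static cells. Before this exposure the study held the cells in low-serum medium, to synchronize them and bring out primary cilia. In the second table, cells transfected with a mixture of siRNAs against Ift88, an intraflagellar transport gene needed to build primary cilia, were compared with cells given a scrambled control siRNA, 4 libraries each; the study describes both groups as kept under flow. For its calcium assays on siRNA cells, the study also describes a change to low-serum medium. The comparisons ask how shear stress, and a reduction of primary cilia under it, bear on gene expression. The labels do not say that libraries of a group came from separate cultures, so p-values measure the spread between these libraries.

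The epididymal duct grows from the Wolffian duct, whose formation depends on the paired box factors Pax2 and Pax8 and on the LIM homeobox factor Lhx1. In the adult, estrogen receptor alpha (Esr1) is known for its part in fluid reabsorption by the efferent ducts and the first epididymal segment, and the water channels Aqp1 and Aqp9 mark the efferent ducts and the principal cells. Principal cells of the caput secrete proteins into the sperm environment under androgen and luminal testicular factors, among them the cysteine-rich protein Crisp1, the retinoid-binding lipocalin Lcn5 and the ribonuclease-like protein Rnase10.

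The members lie on 8 chromosomes of the GRCm38 annotation (GENCODE M21, not the annotation used for quantification). Pax2 spans chr19:44756045-44837871 on the plus strand, Pax8 chr2:24420560-24475599 on the minus strand, Lhx1 chr11:84518284-84525535 on the minus strand and Esr1 chr10:4611593-5005614 on the plus strand. Aqp1 spans chr6:55336432-55348555 on the plus strand and Aqp9 chr9:71110659-71168682 on the minus strand. Crisp1 spans chr17:40293758-40319207 on the minus strand, Lcn5 chr2:25657952-25661977 on the plus strand and Rnase10 chr14:51007751-51010758 on the plus strand. The spans of Pax2, Pax8 and Aqp9 overlap 3, 1 and 2 other annotated genes, none of them annotated as protein coding, and each span overlaps at least 1 on the opposite strand. The library kit kept strand, but the strand setting of the quantification was not given in the sources used here.

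To show promoters of members at different levels, the 250 bases before the RefSeq transcription start (GRCm38.p6) are given for the most abundant transcription factor and water channel among the members and for 2 of the secreted proteins, 5′ to 3′ along the gene. Capitals mark CG dinucleotides and the TATA box letters TATAAA. The Pax8 window is chr2:24475600-24475849 on the minus strand, the Aqp1 window chr6:55336049-55336298 on the plus strand, the Crisp1 window chr17:40319208-40319457 on the minus strand and the Lcn5 window chr2:25657702-25657951 on the plus strand.
Pax8: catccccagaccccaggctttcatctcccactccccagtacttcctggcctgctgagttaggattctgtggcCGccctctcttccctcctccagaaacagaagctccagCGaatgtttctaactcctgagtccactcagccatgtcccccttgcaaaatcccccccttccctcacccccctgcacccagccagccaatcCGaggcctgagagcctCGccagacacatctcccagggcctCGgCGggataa
Aqp1: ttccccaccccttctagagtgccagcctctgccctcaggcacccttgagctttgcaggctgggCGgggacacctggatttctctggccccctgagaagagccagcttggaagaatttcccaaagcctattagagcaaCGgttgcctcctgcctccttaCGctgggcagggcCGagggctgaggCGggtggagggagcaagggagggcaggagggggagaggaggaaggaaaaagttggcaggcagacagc
Crisp1: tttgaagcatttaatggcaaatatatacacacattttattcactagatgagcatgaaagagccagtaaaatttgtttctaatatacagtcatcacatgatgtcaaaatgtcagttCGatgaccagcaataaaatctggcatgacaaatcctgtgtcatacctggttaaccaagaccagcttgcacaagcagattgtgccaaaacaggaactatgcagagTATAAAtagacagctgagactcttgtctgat
Lcn5: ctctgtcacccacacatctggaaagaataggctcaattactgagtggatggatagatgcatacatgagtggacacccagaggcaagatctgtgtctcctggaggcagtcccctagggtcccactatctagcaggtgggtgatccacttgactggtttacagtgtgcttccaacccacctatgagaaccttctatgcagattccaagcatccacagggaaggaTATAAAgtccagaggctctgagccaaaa
The Pax8 and Aqp1 windows held 6 and 5 CG dinucleotides and no TATAAA. The Crisp1 window held 1 CG dinucleotide and a TATAAA beginning 31 bases before the start, and the Lcn5 window held none and a TATAAA beginning 28 bases before the start. Low members did not share these letters: both windows of Rnase10, listed at 0 in most libraries, held 3 CG dinucleotides and no TATAAA, the Lhx1 window held 26 and no TATAAA, and no window of Pax2, Esr1 or Aqp9 held TATAAA. Searched on both strands, TATAAA was present in 12.4% of the 32851 RefSeq windows of this length, whose median CG count was 6. The letters AGAACA, a half-site of steroid receptors, found in 16.1% of all windows on either strand, were in none of these 4; among all 14 windows of the members they stood in 1 of 2 Aqp9 windows and in both Rnase10 windows. These are matches of letters only.

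Abundance was given in TPM, in which the reads of a gene are divided by transcript length and then by the total of the library, so that genes can be set in order within a library. TPM values keep no sequencing depth, and the depth behind each value is unknown. Between 15292 and 16682 genes were above 0 in a library, with more in the Ift88 siRNA libraries (15713 to 16682) than in the control siRNA libraries (15292 to 15382). Pearson correlations between libraries of a table, of 0.987 to 0.998 in the flow and static libraries and 0.994 to 0.997 in the siRNA libraries, left no pair identical. Ift88 itself was at 1.30 ± 0.33 TPM in the Ift88 siRNA libraries and 4.14 ± 0.05 TPM in the controls (SD, n = 4), a log2 difference of -1.17 with an adjusted p of 0.00212 (limma). The library called flow replicate 6 by its title carries a static treatment label; it was counted as flow, and results that move when it is not are given with both values. TPM is scaled within each library, but the cells of the second table were also transfected, so levels of the 2 tables are set side by side without a test.

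In both tables Pax8, Pax2 and Aqp1 were the members whose mean reached 1 TPM, while Lhx1, Esr1, Aqp9, Crisp1, Lcn5 and Rnase10 were below it. Of all 21509 genes, 52.9% reached that mean in the flow and static libraries and 52.1% in the siRNA libraries. In the flow and static libraries Pax8 averaged 82.3 ± 14.2 TPM, Pax2 31.6 ± 5.02 TPM and Aqp1 9.70 ± 7.05 TPM (SD, n = 12). In the siRNA libraries Pax8 averaged 111 ± 19.2 TPM, Pax2 8.25 ± 1.59 TPM and Aqp1 2.18 ± 0.60 TPM (SD, n = 8). Pax8 stood above Pax2, and Pax2 above Aqp1, in every library of both tables. The ranges of Pax8 and Pax2 were apart in both tables; those of Pax2 and Aqp1 overlapped in the flow and static libraries and were apart in the siRNA libraries. Below Aqp1, the ranges of neighbouring members overlapped, so the order of Esr1, Aqp9, Lhx1, Lcn5 and Rnase10 is not set beyond their spread.

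**Figure D1:**
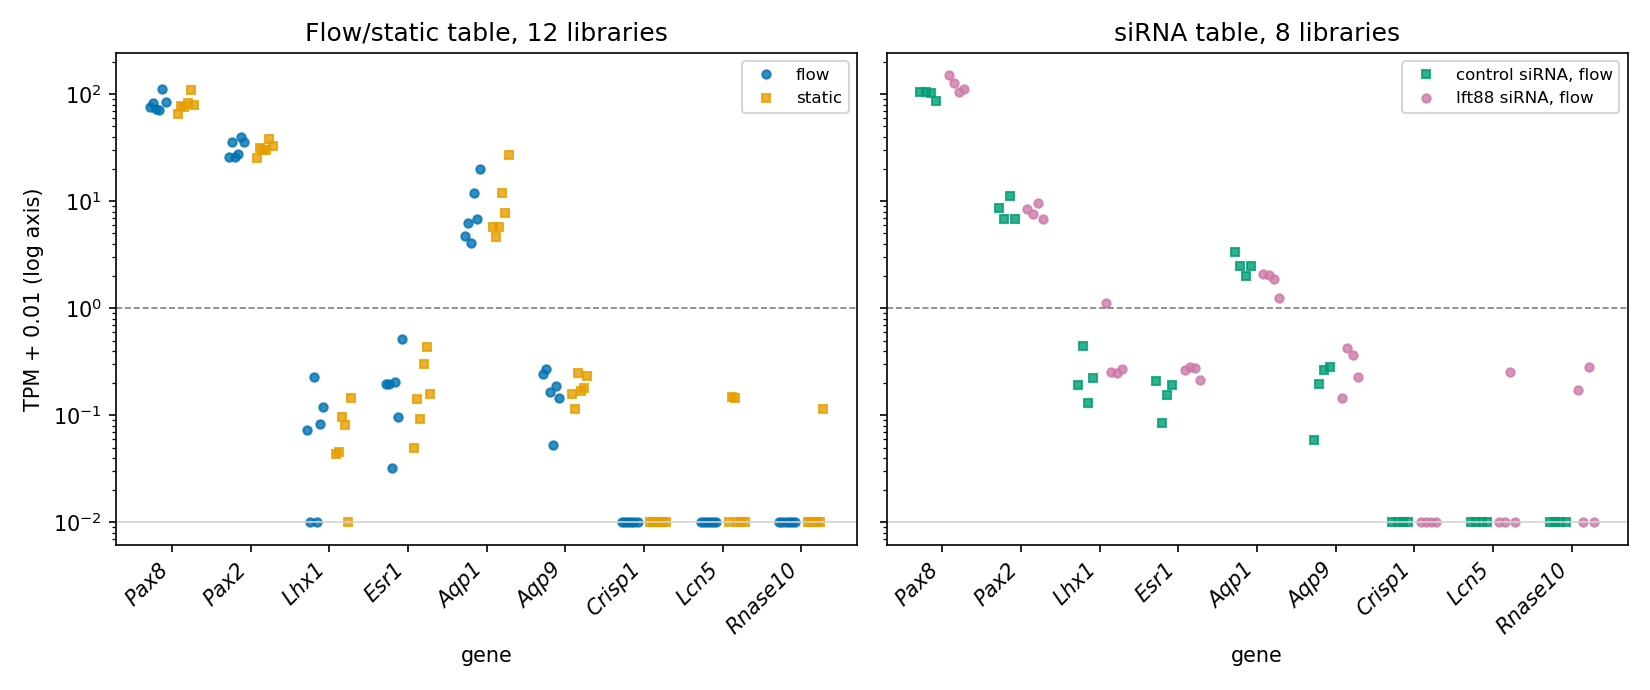
TPM + 0.01 of each member on a log axis, 1 point for each library, in the flow and static libraries (left) and the siRNA libraries (right). The dashed line marks 1 TPM and the lowest line the genes listed at 0; Pax8 (65.1 to 150.1 TPM) is the highest member in every library, and Crisp1 is listed at 0 in all 20.

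Pax8 was the most abundant member. Its flow libraries 1 to 6 read 75.5, 82.7, 72.7, 71.0, 112 and 84.4 TPM. Its static libraries 1 to 6 read 65.1, 78.0, 76.0, 81.9, 109 and 79.7 TPM. Replicate 5 was the highest in both conditions, and the groups overlapped over nearly their whole range. The flow libraries differed from the static by 0.02 on the log2(TPM + 1) scale (SE 0.12, adjusted p = 0.998, limma across 11388 genes), with a 95% interval of -0.24 to 0.29, or 0.844-fold to 1.22-fold. This fit left the libraries unpaired. Fitting same-numbered libraries as blocks narrowed the interval to -0.11 to 0.15 (SE 0.06, adjusted p = 0.906, limma). Within a replicate number, flow was higher in 4 pairs and lower in 2.

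Pax2, which acts with Pax8 in the Wolffian duct and kidney, read 26.0, 35.9, 25.9, 27.3, 40.0 and 35.5 TPM in flow libraries 1 to 6. The static libraries 1 to 6 read 25.3, 31.6, 30.0, 30.4, 38.4 and 32.9 TPM. Replicate 5 was again the highest and replicate 1 the lowest or next to lowest in both groups, and the groups overlapped. The log2 difference between flow and static was 0.00 (SE 0.12, adjusted p = 0.998, limma), with an interval of -0.26 to 0.27, or 0.834-fold to 1.21-fold. Same-numbered libraries fitted as blocks gave a narrower interval, -0.14 to 0.15 (SE 0.07, adjusted p = 0.985, limma). Flow was higher in 4 of the 6 replicate pairs.

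The ratio of Pax8 to Pax2 was steadier than either gene in the flow and static libraries. It ranged from 2.30 to 2.90 with a median of 2.69 under flow, and from 2.42 to 2.85 with a median of 2.55 in static cells. In the siRNA libraries it ranged from 9.04 to 15.3 in controls, with a median of 12.5, and from 10.8 to 17.9 after Ift88 siRNA, with a median of 16.5. Pax2 is lower and Pax8 higher in that table, and no common scaling of a library alters a ratio taken within it. The correlation of Pax2 with Pax8 was r = 0.885 over the 12 flow and static libraries and r = 0.0583 over the 8 siRNA libraries, a description over libraries that share replicate numbers and conditions.

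Aqp1, the water channel of efferent duct and proximal epithelia, varied more over the flow and static libraries than Pax8 and Pax2, the other members that reached 1 TPM. Flow libraries 1 to 6 read 4.74, 6.31, 4.06, 11.96, 6.78 and 19.8 TPM. Static libraries 1 to 6 read 5.73, 4.67, 5.73, 11.96, 7.75 and 26.9 TPM. The highest library exceeded the lowest 6.63 times, yet the flow and static libraries of a number kept close to each other. Aqp1 was at 4.06 to 6.31 TPM in the 6 libraries numbered 1 to 3 and at 6.78 to 26.9 TPM in the 6 numbered 4 to 6, without overlap. Among all 11388 genes tested, 8.60% were higher without overlap in numbers 4 to 6 and 0.834% lower. The ranges of Pax8 and Pax2 in the 2 sets overlapped. These sets were chosen with earlier results of these data known, in which they had separated.

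The spread of Aqp1 on the log2(TPM + 1) scale (SD 0.78) was larger than that of 98.8% of the genes tested, against 62.6% for Pax8 and 60.3% for Pax2. Differences between replicate numbers held 95.8% of its variance, and flow against static 0.93%. For Pax8 these shares were 90.9% and 0.29%, and for Pax2 89.4% and 0.011%, where the medians over all genes were 70.0% and 3.85%. All 3 genes thus varied more with the replicate number than the median gene, and less with flow.

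The libraries of replicate 6 stood apart in other ways too. They held the most genes above 0, 16300 for flow and 16562 for static against 15543 to 15967 in the other libraries of the table. Their summed endothelial list, 1.31 and 1.45 TPM, was the highest of the table, and their summed pan-epithelial list, 293.9 and 140.2 TPM, was the highest of each condition. That epithelial sum was also higher without overlap in numbers 4 to 6 (108.5 to 293.9 TPM) than in numbers 1 to 3 (67.3 to 84.4 TPM), as Aqp1 was. Cd68, a lysosomal protein of macrophages that other cells also make, was also highest in replicate 6, with 39.6 TPM in the flow and 64.0 TPM in the static library against 10.1 to 22.8 TPM in the other libraries of the table. It was the only one of 7 immune markers whose mean reached 1 TPM; Adgre1 and Cd3e were at 0 in all 12 libraries, and the summed list ranged from 10.5 to 40.3 TPM over the flow libraries and from 13.9 to 65.3 TPM over the static. Other immune markers followed Cd68 only in part. Csf1r read 1.23 TPM in static 6, the highest static library, with 0.440 TPM in static 4 as the next. Under flow it read 0.704 TPM in flow 6, below 1.34 TPM in flow 5. Itgam was highest of the static libraries in static 6 (0.108 TPM) and lowest of the flow libraries in flow 6 (0.0297 TPM). Ptprc read 0.0150 and 0.0310 TPM in replicate 6 against up to 0.0878 TPM in static 4. The part of any of these in the level of Aqp1 was not tested. In bulk libraries, fewer cells of a type and less RNA per cell cannot be told apart.

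**Figure D2:**
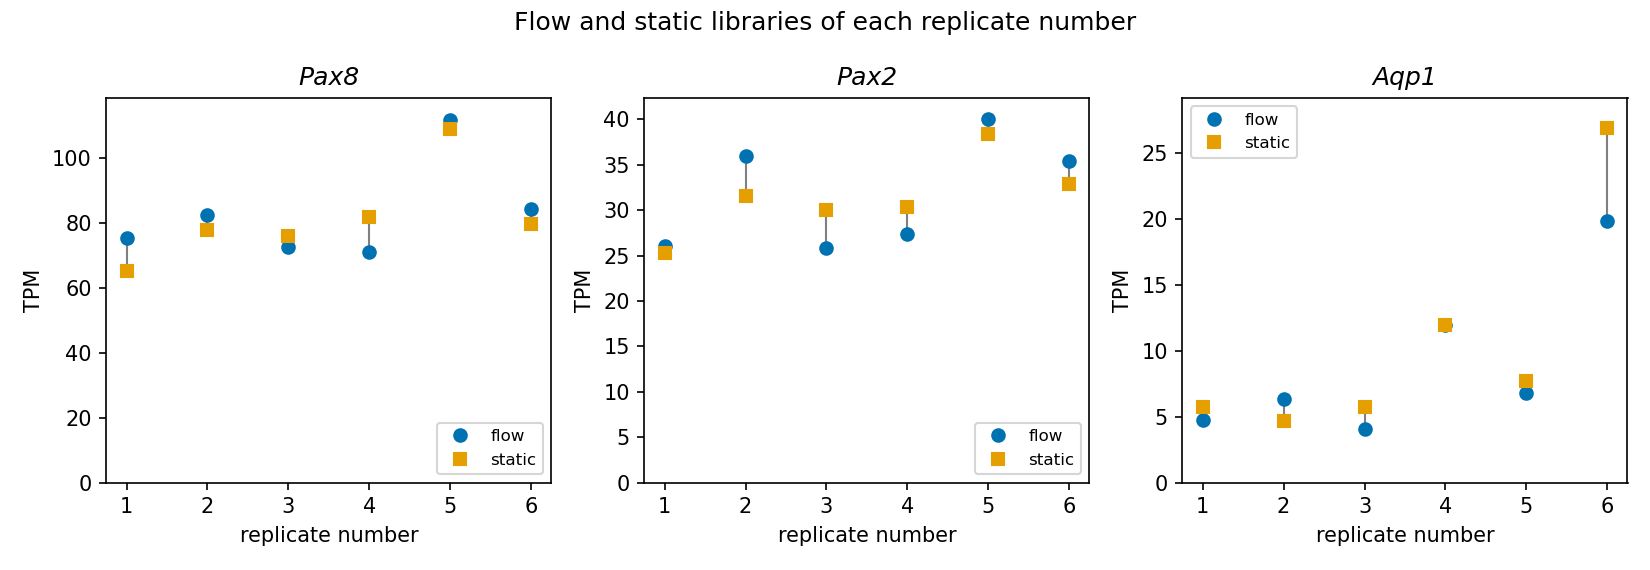
TPM of Pax8, Pax2 and Aqp1 by replicate number, with the flow and static libraries of a number joined by a grey line and axes from 0. Within a number the 2 conditions lie close together, while Aqp1 ranges from 4.06 TPM in flow replicate 3 to 26.9 TPM in static replicate 6.

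The flow libraries of Aqp1 differed from the static by -0.14 on the log2 scale (SE 0.40, adjusted p = 0.998, limma), with an interval of -1.01 to 0.72. Changes between 0.497-fold and 1.65-fold were thus within its error, so this comparison says little about Aqp1. With the replicate number as a block, which the libraries' shared deviations allow, the interval narrowed to -0.38 to 0.09 and the adjusted p was 0.655. Counting flow replicate 6 as static gave -0.55 (adjusted p = 1.000), and leaving out static replicate 6 gave 0.16 (adjusted p = 0.999).

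None of the 3 members tested was called in flow against static, at an adjusted p under 0.05 and over 1.5-fold, and none had an unadjusted p under 0.05. Over all genes tested 0.105% were called higher and 0% lower, 12 genes in all, and 3.85% had an unadjusted p under 0.05. The groups overlapped for all 3, as for all but 0.492% of genes on the higher and 0.0527% on the lower side. With the replicate block 68 genes were called higher, 0.597% of those tested, and none of them was a member. The response to flow was also compared between replicates 4 to 6 and 1 to 3, the sets chosen with earlier results of these data known. It differed by -0.11 for Pax8 (interval -0.59 to 0.38), 0.00 for Pax2 (-0.50 to 0.50) and -0.11 for Aqp1 (-1.31 to 1.10) on the log2 scale. No member was called there, and of all genes 0% were called and 2.09% had an unadjusted p under 0.05 (limma).

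**Figure D3:**
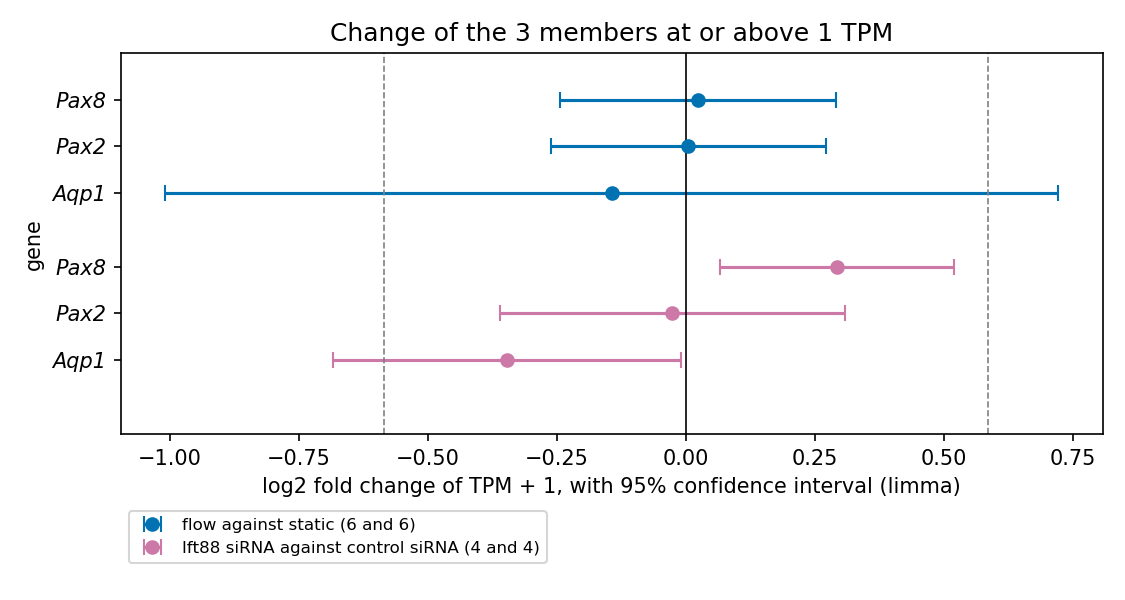
Log2 fold change of TPM + 1 (points) with its 95% confidence interval from limma (bars) for Pax8, Pax2 and Aqp1, flow against static in blue and Ift88 siRNA against control siRNA in pink. Dashed lines mark 1.5-fold; for Pax8 and Pax2 both intervals stay inside them, and for Aqp1 both reach beyond the lower one.

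After Ift88 siRNA, Pax8 had the larger mean. Its control siRNA libraries 1 to 4 read 105, 105, 102 and 86.5 TPM. Its Ift88 siRNA libraries 1 to 4 read 150.1, 127, 105 and 111 TPM. Only Ift88 siRNA library 3 fell within the control range, below the 2 highest controls. The means were 123 ± 20.3 and 99.7 ± 8.94 TPM (SD, n = 4), a log2 difference of 0.29 (SE 0.10, interval 0.07 to 0.52). The unadjusted p was 0.0153 and the adjusted p 0.245 (limma across 11209 genes), so the call was not reached.

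Pax2 read 8.58, 6.86, 11.3 and 6.83 TPM in control siRNA libraries 1 to 4 and 8.41, 7.63, 9.64 and 6.80 TPM in Ift88 siRNA libraries 1 to 4. The groups overlapped, and library 3 was the highest of each. The log2 difference was -0.03 (SE 0.15, adjusted p = 0.959, limma), with an interval of -0.36 to 0.31. The interval leaves room for 0.779-fold to 1.24-fold.

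Aqp1 had the smaller mean after Ift88 siRNA. Control siRNA libraries 1 to 4 read 3.31, 2.47, 2.00 and 2.49 TPM, and Ift88 siRNA libraries 1 to 4 read 2.08, 2.02, 1.88 and 1.23 TPM. The groups overlapped only through control library 3, which lay below 2 of the Ift88 siRNA libraries. The log2 difference was -0.35 (SE 0.16, interval -0.69 to -0.01), with an unadjusted p of 0.0451 and an adjusted p of 0.347 (limma).

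No member was called in this comparison, in which 0.223% of the 11209 genes tested were, 0.152% higher and 0.0714% lower. Pax8 and Aqp1 were among the 13.9% of genes with an unadjusted p under 0.05. Pax8, Pax2 and Aqp1 all overlapped between groups, while 5.79% of genes were higher and 2.79% lower without overlap.

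**Figure D4:**
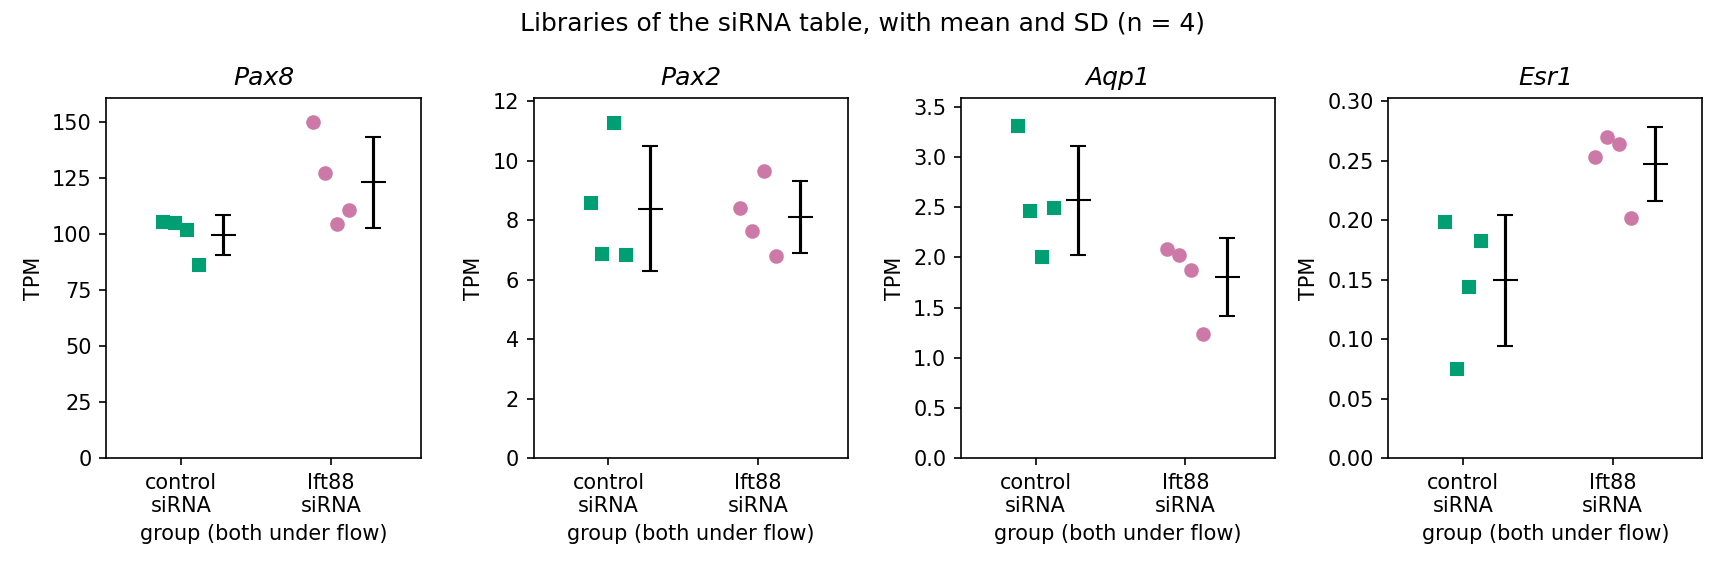
TPM of Pax8, Pax2, Aqp1 and Esr1 in the 4 control siRNA and 4 Ift88 siRNA libraries, with the mean and SD beside the points and axes from 0. The groups overlap for Pax8, Pax2 and Aqp1; for Esr1 they do not, at levels of 0.0746 to 0.270 TPM.

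Lhx1, the Wolffian duct partner of the Pax factors, was near the floor of both tables. It was listed at 0 in flow libraries 2 and 4 and static library 5, and otherwise read 0.0333 to 0.217 TPM. In the siRNA libraries the controls read 0.182, 0.436, 0.121 and 0.213 TPM and the Ift88 siRNA libraries 1.10, 0.244, 0.239 and 0.261 TPM. Ift88 siRNA library 1 stood far above the other 7, and the groups overlapped. Fitted without the filter on low values, the log2 difference was 0.21 (SE 0.17, adjusted p = 0.714, limma).

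Esr1 read 0.0225, 0.185 and 0.505 TPM as the lowest, median and highest of the 6 flow libraries, and 0.0396, 0.141 and 0.427 TPM of the 6 static. The groups overlapped. So did those of Lhx1, Aqp9, Lcn5 and Rnase10, where, without the filter, 0.307% of the 18564 genes were higher and 0.0593% lower without overlap. Control siRNA libraries 1 to 4 read 0.198, 0.0746, 0.144 and 0.182 TPM and Ift88 siRNA libraries 1 to 4 read 0.253, 0.270, 0.264 and 0.202 TPM. All 4 Ift88 siRNA libraries lay above all 4 controls, the nearest by 0.202 against 0.198 TPM. Of the 19195 genes fitted without the filter, 4.31% were higher and 1.84% lower without overlap. The log2 difference was 0.12 (SE 0.05, unadjusted p = 0.0320, adjusted p = 0.425, limma), and 0.0156% of genes were called in each direction. The Ift88 siRNA libraries also held more genes above 0 than the controls, as given above, and the part of that in the level of Esr1 was not tested.

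Aqp9, the aquaglyceroporin of principal cells, was above 0 in all 20 libraries and below 0.5 TPM in each. The lowest, median and highest of 6 libraries were 0.0428, 0.166 and 0.262 TPM for flow and 0.105, 0.164 and 0.238 TPM for static. Control siRNA libraries read 0.0494, 0.185, 0.255 and 0.270 TPM and Ift88 siRNA libraries 0.135, 0.413, 0.353 and 0.217 TPM. Both pairs of groups overlapped, with log2 differences of -0.01 (SE 0.05) for flow and 0.10 (SE 0.09) for Ift88 siRNA without the filter. Aqp9 was below Aqp1 in every library.

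The 3 secreted members, Crisp1, Lcn5 and Rnase10, were listed at 0 in most or all libraries. Crisp1, an abundant secretory protein of the caput and corpus in the animal, was listed at 0 in all 20 libraries, where 13.7% of all genes were at 0 throughout the flow and static libraries and 10.8% throughout the siRNA libraries. Lcn5 was listed at 0 in 17 libraries and read 0.140 and 0.137 TPM in static libraries 2 and 3 and 0.245 TPM in Ift88 siRNA library 3. Rnase10 was listed at 0 in 17 libraries and read 0.104 TPM in static library 6 and 0.164 and 0.275 TPM in Ift88 siRNA libraries 1 and 3. Neither gene was above 0 in any flow or control siRNA library. Without the filter the log2 differences were -0.06 (SE 0.04) for Lcn5 and -0.02 (SE 0.02) for Rnase10 in flow against static. For Ift88 siRNA they were 0.08 (SE 0.07) and 0.14 (SE 0.08), with adjusted p of 0.714 and 0.561 (limma).

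Around the members, 4 lists of genes of like role were counted. Of 19 developmental genes, transcription factors together with the receptor Ret, 8 reached a mean of 1 TPM in each table, with Pax8 and Pax2 among the 3 highest in the flow and static libraries. No gene of this list was called in any comparison. In flow against static the median log2 change of the 8 was 0.01, beside -0.03 over all genes tested. In Ift88 siRNA against control it was -0.10, beside 0.02 over all genes, and 5 had an unadjusted p under 0.05. Among them, named after their values were seen, were Pax8 (0.29) on the higher side and Emx2 (-0.29), Etv4 (-0.43) and Etv5 (-0.40) on the lower.

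Of 17 steroid receptors and genes of hormone handling, 12 reached 1 TPM in the flow and static libraries and 11 in the siRNA libraries. The highest were Fkbp4, a cochaperone of steroid receptors (137 TPM), Nr3c1, the glucocorticoid receptor (62.0 TPM), and Srd5a3, of the steroid reductase family (36.9 TPM). None of the list was called; the median log2 change was -0.06 for flow and -0.08 for Ift88 siRNA, where 1 gene, Nr3c1 (-0.20), had an unadjusted p under 0.05.

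Of 22 aquaporins and fluid transport genes, 10 reached 1 TPM in the flow and static libraries and 8 in the siRNA libraries. Among the 3 highest were the sodium pump beta subunit Atp1b1 (156 TPM) and the anion exchanger Slc4a2 (119 TPM), both far above Aqp1. None was called, and the median log2 change was -0.04 for flow and -0.01 for Ift88 siRNA. With Aqp1, Atp1b1 (0.20) and Car12 (0.32), a carbonic anhydrase, had an unadjusted p under 0.05 after Ift88 siRNA; they are named after their values were seen.

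Of 36 secreted caput proteins 2 reached 1 TPM in each table, Ptgds, the lipocalin-type prostaglandin D synthase (34.6 TPM), and the chaperone Clu (2.45 TPM), followed by Gpx3 at 0.629 TPM. All flow and static libraries lacked any value above 0 for 18 of the 36, and all siRNA libraries for 16. Crisp1 shared that state with, among others, Crisp3, Lcn9, Rnase9, Rnase11 and Rnase13 in both tables. None was called; Ptgds differed by -0.38 (SE 0.37) in flow against static and by 0.27 (SE 0.10, adjusted p = 0.253, limma) after Ift88 siRNA, where 1 of the 2 genes tested had an unadjusted p under 0.05.

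**Figure D5:**
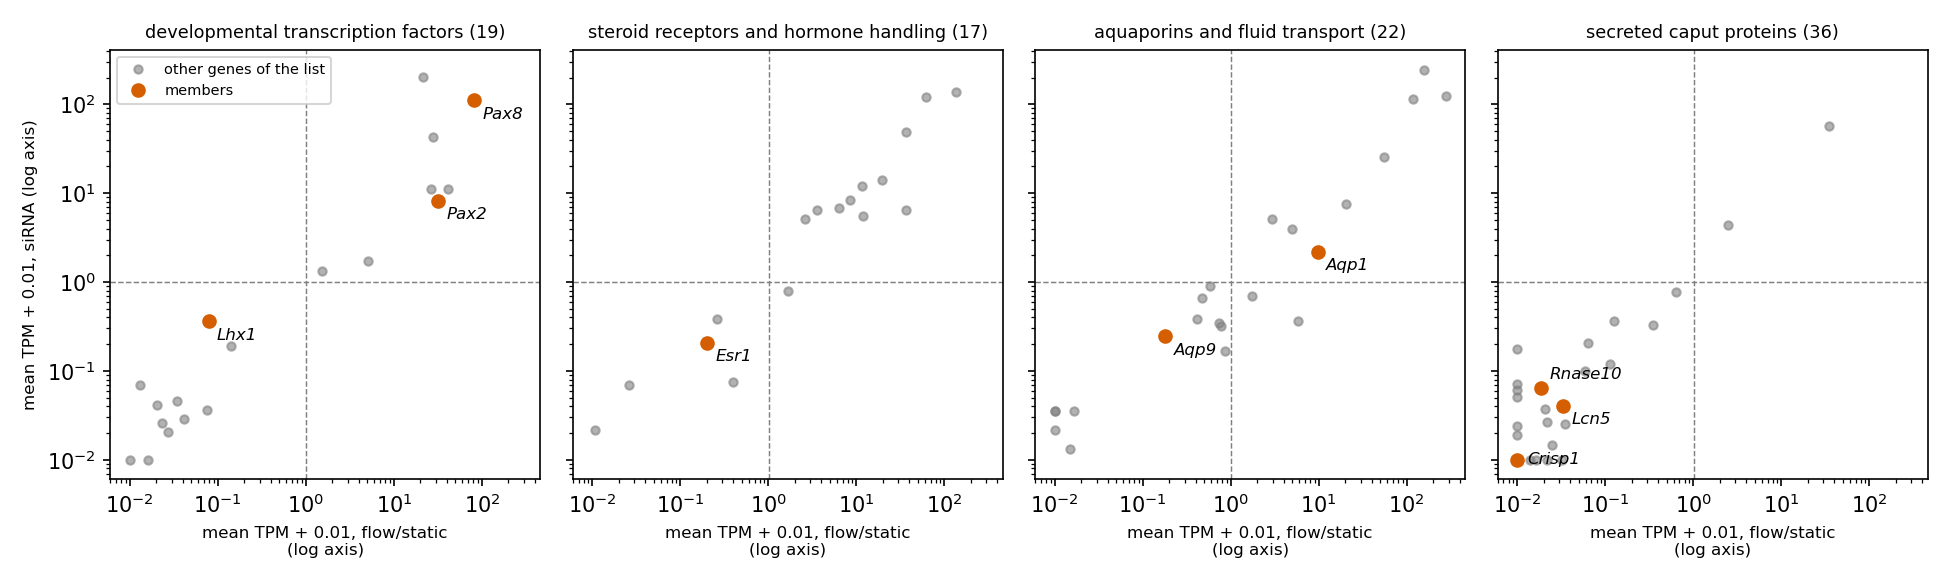
Mean TPM + 0.01 of every gene of the 4 role lists, flow and static libraries on the horizontal axis and siRNA libraries on the vertical, both log axes, members in orange and dashed lines at 1 TPM. Pax8, Pax2 and Aqp1 lie above both lines, and of the 36 secreted caput proteins 2 do.

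Set against the label of distal caput principal cells, 1 of 10 principal cell markers reached 1 TPM in each table, and Crisp1 was at 0 in all libraries. The summed list ranged from 2.69 to 5.61 TPM in the flow and static libraries and from 5.64 to 8.78 TPM in the siRNA libraries. Of the lists for other cells, 4 of 9 efferent duct and multiciliated markers reached 1 TPM in each table (Foxj1, Aqp1, Rsph1 and Lrp2), 3 of 9 basal, 1 of 9 clear cell and 1 of 7 immune markers. For fibroblasts and smooth muscle it was 4 of 11 in the flow and static libraries and 3 in the siRNA libraries, for endothelium 0 and 1 of 5, and for germ cells 0 of 6 in both. Of 11 pan-epithelial markers 3 reached 1 TPM in the flow and static libraries (Krt18, Cldn4 and Krt19) and 4 in the siRNA libraries, with Cdh1. Cldn4, named after its values were seen, averaged 66.2 TPM in the flow and 30.3 TPM in the static libraries but 2943 TPM in the Ift88 siRNA and 2895 TPM in the control siRNA libraries, and the summed epithelial list ranged from 67.3 to 293.9 TPM in the flow and static libraries and from 2878 to 3347 TPM in the siRNA libraries. No gene of the marker lists was called in any comparison.

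The genes whose levels ran most like a member's were ranked by the smaller of their Pearson correlations on log2(TPM + 1) over the 12 flow and static and the 8 siRNA libraries, among 10895 genes. For Pax8 they were Exoc6b (0.911 and 0.929), Ticam1 (0.908 and 0.931) and Dennd2b (0.904 and 0.910). For Pax2 they were Inpp4a (0.923 and 0.952), Phf13 (0.956 and 0.915) and B230219D22Rik (0.915 and 0.951). For Aqp1 they were Sgtb (0.833 and 0.848), Cep120 (0.828 and 0.870) and Eps8 (0.847 and 0.823). The libraries behind each value share replicate numbers, conditions and scaling, and the highest of so many correlations are large by selection. Pax2 was not among the nearest genes of Pax8, nor Pax8 among those of Pax2.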

How the data were processed

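The processed files were 2 tables of gene abundance with 20 libraries in all, per the labels 6 flow, 6 static, 4 Ift88 siRNA and 4 control siRNA. The authors trimmed reads (Trimmomatic in their methods, fastp 0.20.0 in the submitters' processing notes), quantified the stranded libraries with kallisto 0.46.2 on Ensembl mouse transcripts and took transcripts to gene level with tximport. The values, as deposited, are in TPM, which sum to the same total in each library and keep no depth. The methods also name a relative log expression normalization, which these tables do not carry. They give no coordinates.

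Groups follow the titles. Values were tested as log2(TPM + 1) with limma 3.58.1 (R 4.3.3, trended eBayes, no covariates) over genes whose mean reached 1 TPM, each table apart, with Benjamini-Hochberg adjustment; a call needed an adjusted p under 0.05 and over 1.5-fold. Differences are Ift88 siRNA minus control siRNA and flow minus static. Fold changes on this scale understate the change of low genes. On simulated data with 200 genes changed 1 log2 unit, 94%, 96% and 63% were recovered for flow (11379 genes), Ift88 siRNA (11210) and the difference in flow response (11371). The changed genes were drawn only from the more abundant ones, with noise independent between libraries. These rates thus do not give the power for low members or for a gene as variable as Aqp1. Same-numbered flow and static libraries, numbered in the titles, deviated together (r = 0.294 to 0.662 in all 6 pairs). The numbers were thus taken as pairs there, in the replicate block and the pair counts. The main fits left this pairing out.

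The members and lists (role lists, and markers of principal, clear, basal, efferent duct and multiciliated, pan-epithelial, fibroblast and smooth muscle, immune, endothelial and germ cells) were chosen with earlier results of these data known. Besides the members, the text names called genes of the role lists, the 3 highest of each role list and the 3 genes nearest to each member at 1 TPM or more; some genes these rules would name are not reported here, and other names are said to be chosen after their values or give the makeup of the marker lists. Alternatives were other filters, pseudocount, scaling, library weights, the replicate block, the other label of flow replicate 6, replicate subsets and leaving out each library.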

Additional observations from a re-analysis of the deposited data

Results flagged for a closer look

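In 28 groups of member values that were not all at 0, the gap of the highest or lowest library to its neighbour, divided by the range of the group, passed the 95% critical value of Dixon's test 6 times, where chance passes about 5% of groups. Pax8 in flow replicate 5 (112 TPM, next 84.4 TPM) was high, as was its static partner. Aqp1 in static replicate 6 (26.9 TPM, next 11.96 TPM) had a flow partner at 19.8 TPM. Esr1 in flow replicate 6 read 0.505 TPM, next 0.195 TPM, and this is the library whose treatment label says static. Rnase10 in static replicate 6 (0.104 TPM) and Lcn5 in Ift88 siRNA replicate 3 (0.245 TPM) stood alone in groups otherwise listed at 0, where a single value above 0 passes by construction, so these 2 do not count against the share that chance gives. Lhx1 in Ift88 siRNA replicate 1 read 1.10 TPM, next 0.261 TPM.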

How the results depend on the processing

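No alternative called a member. The number of genes called in flow against static, 12, was 2 without a filter, 28 with median-of-ratios scaling, 86 with library weights, 5 within replicates 1 to 3 and 56 within 4 to 6; leaving out 1 library gave 5 (flow 4) to 87 (flow 2), with 6 without static 1, 2 or 4 and 7 without static 3. Counting flow replicate 6 as static called 0 genes by limma, with 181 at an unadjusted p under 0.05. For Ift88 siRNA, 25 genes became 6 without a filter, 16 with the filter at 0.1 TPM, 48 with library weights and 71 without the fold threshold; leaving out 1 library gave 11 (Ift88 siRNA 1 or control 1) to 23, with 13 without Ift88 siRNA 2, 14 without control 3 and 12 without control 4. The cause of these shifts was not tested. With the replicate block the counts were 68, 44 for Ift88 siRNA, where same-numbered libraries share only a number (r = 0.00276 to 0.259), and 18 for the difference in flow response, which was 0 in the report and 0 to 34 (without flow 4) when 1 library was left out; the block called no member.

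Small log2 differences changed sign. With library weights flow against static gave -0.11 for Pax2, 0.11 for Aqp1 and -0.036 for Pax8, and Ift88 siRNA gave 0.026 for Pax2; counting flow replicate 6 as static gave -0.056 for Pax2, and replicates 4 to 6 alone -0.030 for Pax8. Leaving out 1 library gave, for flow, -0.064 to 0.062 (Pax2), -0.065 to 0.11 (Pax8) and -0.39 to 0.16 (Aqp1), for the difference in flow response -0.12 to 0.15 (Pax2), -0.28 to 0.042 (Pax8) and -0.48 to 0.36 (Aqp1), and for Ift88 siRNA -0.11 to 0.11 (Pax2), 0.19 to 0.37 (Pax8, adjusted p 0.148 to 0.446, limma) and -0.43 to -0.24 (Aqp1, adjusted p 0.347 to 0.613). Depth is unknown, so the counting error of the levels under 1 TPM could not be estimated.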
